A study of Mus musculus with 6 samples.

Results

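Protein phosphatase 1 (PP1) is the enzyme described here, through 10 of its genes chosen by name: the catalytic subunit genes Ppp1ca, Ppp1cb and Ppp1cc, the glycogen-targeting subunit genes Ppp1r3a, Ppp1r3c and Ppp1r3d, the myosin-targeting subunit genes Ppp1r12a and Ppp1r12b, and the inhibitor genes Ppp1r1a and Ppp1r2. Each of the 10 had 1 row among the 25927 rows of the authors' table, and each had been tested by the authors, as had 13347 rows in all. The table compares gastrocnemius, a calf muscle, of C57BL/6J mice aged 8 weeks in 2 groups of 3 libraries each: wild type (WT), and a muscle-specific MLL4SET knock-out (MLL4SET-MKO). MLL4, encoded by Kmt2d, is a histone H3 lysine 4 methyltransferase, and the SET domain is its catalytic part. The sources used here do not name the promoter that drives the deletion, and cells of the muscle other than fibres are also in the RNA. The authors gave 1 FPKM value per group (fragments scaled to transcript length and library size), so values of single mice and the spread between them are not reported and read depth is unknown. The genes were picked because of values in this same comparison, Ppp1r1a for its large difference, so their values and the authors' q-values below are a description and no test was added.

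PP1 removes phosphate from serine and threonine. Its catalytic subunit does little alone: targeting subunits bring it to glycogen or to myosin, and inhibitor proteins block it. In skeletal muscle, PP1 bound to glycogen activates glycogen synthase and inactivates phosphorylase and phosphorylase kinase, and it is opposed by adrenaline acting through cyclic AMP and protein kinase A (PKA). Inhibitor-1, the product of Ppp1r1a, becomes a PP1 inhibitor only after PKA has phosphorylated it, which couples that pathway to PP1.

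Of the 10 genes, 4 fell in MLL4SET-MKO and none rose at q under 0.05 in the authors' deposited table; over all tested rows 11.8% were called, 7.41% as lower and 4.44% as higher. The genes that fell were the inhibitor Ppp1r1a, the catalytic genes Ppp1cb and Ppp1cc, and the minor glycogen-targeting gene Ppp1r3d. In value, 8 genes were lower and 2 (Ppp1r3a and Ppp1r12b) higher. The median log2 ratio of MLL4SET-MKO over WT was -0.30 over the 10 genes and -0.27 without Ppp1r1a, against -0.04 over the 11271 tested rows with a mean of at least 1 FPKM, a level that all 10 genes reached. All 9 slow fibre markers fell in the same comparison, with a summed FPKM of 1313 in WT and 441 in MLL4SET-MKO and none at 0; their part in the values of the PP1 genes was not tested, and in bulk muscle fewer fibres of a type and less RNA per fibre cannot be told apart. Kmt2d itself had 8.77 FPKM in WT and 5.65 FPKM in MLL4SET-MKO (log2 ratio -0.64, 95% interval -0.89 to -0.38). This value covers the whole gene, so it does not measure the stretch for the SET domain or how complete the deletion was. The intervals given here were worked back from the authors' test statistic, so they carry the authors' model of the spread. The authors' p-values fit a normal deviate of 1.73 times the statistic, and the intervals use that factor. Under a strict reading, in which the statistic itself is taken as the deviate, Ppp1r1a was the 1 gene of the 10 still called, where 3.11% of all rows were. Kmt2d was not called under the strict reading either (q = 0.13 with the statistic as the deviate). Intervals under that reading would be 1.73 times as wide as those given here.

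**Figure D1:**
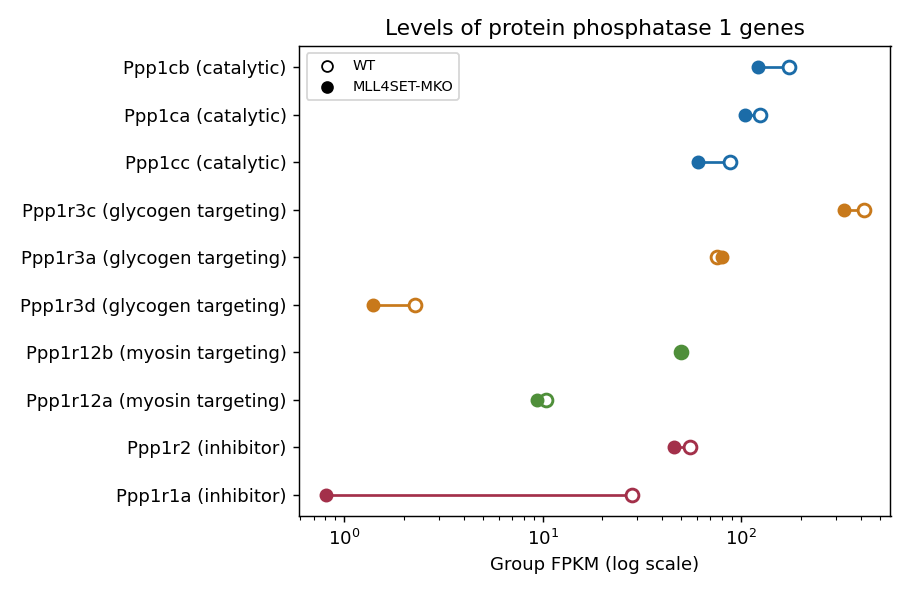
Authors' FPKM of each PP1 gene in WT (open circles) and MLL4SET-MKO (filled circles), on a log scale and coloured by role, with a line joining the 2 groups. Ppp1r1a moves from 28.1 to 0.809 FPKM, while every other gene stays close to its WT level on this scale.

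Upstream sequences are shown for Ppp1cb, Ppp1cc and Ppp1r3d, genes that fell together, and for Ppp1r3a, 1 of the genes that were not called, whose window alone among those of the PP1 genes held the MEF2-type motif. Each is the 250 bases before the gene's RefSeq start on GRCm38.p6, read 5′ to 3′ on the gene's strand, and 8 of the 10 genes had an entry in the RefSeq table used. Those without one were Ppp1r1a and Ppp1ca. Capitals mark 3 motifs searched on both strands: the GC box (GGGCGG or CCGCCC), the TATA box (TATAAA or TTTATA) and a MEF2-type motif (CTANNNNTAG, the same on both strands). MEF2 proteins are transcription factors of muscle genes.
Ppp1cb, chr5:32458720-32458969, plus strand: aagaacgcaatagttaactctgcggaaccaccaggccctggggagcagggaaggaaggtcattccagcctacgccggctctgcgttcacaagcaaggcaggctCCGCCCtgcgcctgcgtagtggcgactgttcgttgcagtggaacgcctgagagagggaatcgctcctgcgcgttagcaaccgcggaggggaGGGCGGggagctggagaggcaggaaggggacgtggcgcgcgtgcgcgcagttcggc
Ppp1cc, chr5:122158025-122158274, plus strand: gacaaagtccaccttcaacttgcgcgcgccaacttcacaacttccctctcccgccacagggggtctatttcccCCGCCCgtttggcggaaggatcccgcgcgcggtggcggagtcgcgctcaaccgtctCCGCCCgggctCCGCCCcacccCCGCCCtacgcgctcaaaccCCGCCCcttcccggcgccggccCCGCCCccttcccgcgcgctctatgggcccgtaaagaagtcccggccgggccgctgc
Ppp1r3d, chr2:178414464-178414713, minus strand: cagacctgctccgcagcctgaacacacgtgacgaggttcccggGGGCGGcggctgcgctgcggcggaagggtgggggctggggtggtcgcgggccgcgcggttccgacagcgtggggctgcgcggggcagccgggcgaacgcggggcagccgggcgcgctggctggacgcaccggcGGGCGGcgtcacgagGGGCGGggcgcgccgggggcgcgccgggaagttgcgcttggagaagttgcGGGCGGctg
Ppp1r3a, chr6:14755275-14755524, minus strand: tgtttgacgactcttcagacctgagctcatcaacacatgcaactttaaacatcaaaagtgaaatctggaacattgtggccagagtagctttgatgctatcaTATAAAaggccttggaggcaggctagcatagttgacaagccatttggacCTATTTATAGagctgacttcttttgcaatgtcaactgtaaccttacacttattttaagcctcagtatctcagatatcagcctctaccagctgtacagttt

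The 3 windows of genes that fell held GC boxes and neither of the other motifs: 2 upstream of Ppp1cb, 6 upstream of Ppp1cc and 4 upstream of Ppp1r3d. They were also rich in CG pairs, with 24, 33 and 41, against a median of 6 over 32841 windows of the same length. Among windows of genes that were not called, that of Ppp1r2 had 6 GC boxes, 2 TATA boxes and 15 CG pairs. Those of Ppp1r3c with 20 CG pairs, Ppp1r12a with 30 and the 2 windows of Ppp1r12b with 7 and 11 held none of the motifs. Whether windows of called and uncalled genes differ was not tested. The Ppp1r3a window had the lowest G and C content of the PP1 windows, with 1 CG pair and 40.4% G and C, while the median window had 52.4%. It held a MEF2-type motif and 2 TATA boxes, one of which lies inside the MEF2-type motif. Over all windows, 3.20% held the MEF2-type motif, 12.4% a TATA box and 32.7% a GC box. A match of letters is a description and does not show that a factor binds there.

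Ppp1r1a, the gene of inhibitor-1, lies on the minus strand of chromosome 15 (103530279 to 103537992 in the authors' table, build mm10) and is protein-coding in GENCODE M21. In WT it was well expressed, at 28.1 FPKM, above 83.7% of tested rows. In MLL4SET-MKO it stood at 0.809 FPKM, above 12.2% of tested rows, which left 2.88% of the WT level. The log2 ratio was -5.12 (95% interval -5.63 to -4.60, q = 0.000903 in the authors' deposited table). That is the smallest q there, and many rows share it, among them Ppp1cb, Ppp1cc and Kmt2d, so it does not rank Ppp1r1a above them. Among the 11271 rows with a mean of at least 1 FPKM, 4 had a lower ratio. With a pseudocount of 1 FPKM, which shrinks ratios of low genes, the log2 value was -4.01.

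**Figure D2:**
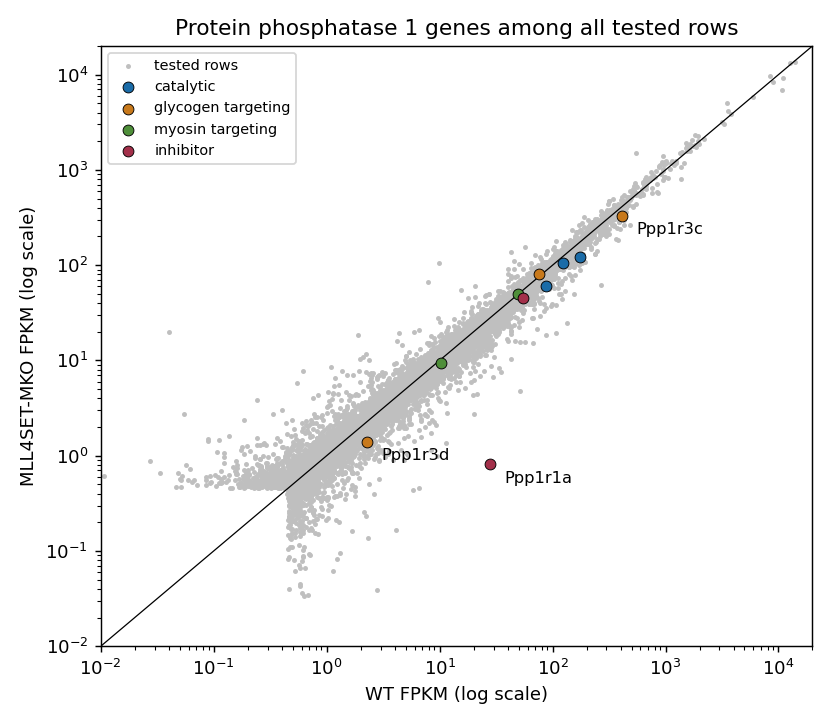
WT FPKM (horizontal, log scale) against MLL4SET-MKO FPKM (vertical, log scale) for the tested rows above 0 in both groups (grey), with the PP1 genes coloured by role and a line of equal values. Ppp1r1a lies far below the line and apart from the grey cloud, while the 9 other PP1 genes lie on or within the cloud.

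Ppp1r2 encodes inhibitor-2, a separate PP1 inhibitor that does not need PKA. It had 55.0 FPKM in WT and 45.7 FPKM in MLL4SET-MKO (log2 ratio -0.27, interval -0.54 to -0.0033, q = 0.22 in the authors' deposited table), at a locus shared with Mir1195, Xxylt1 and Acap2. The interval reaches almost to 0, and the value was not called. The make-up within this pair shifted: Ppp1r1a was 33.8% of the summed FPKM of both inhibitor genes in WT and 1.74% in MLL4SET-MKO. Other PP1 inhibitor genes, such as Ppp1r14b and Ppp1r14c described below, are not in this sum. Set against the summed FPKM of the 3 catalytic genes, Ppp1r1a went from 7.26% to 0.282%, and Ppp1r2 from 14.2% to 15.9%.

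The catalytic genes were lower in value in all 3 cases, by smaller amounts. Ppp1cb, the beta isoform that works with the myosin-targeting subunits, fell from 175 to 122 FPKM (log2 ratio -0.52, interval -0.77 to -0.28). Ppp1cc, the gamma isoform, fell from 87.4 to 60.9 FPKM (log2 ratio -0.52, interval -0.77 to -0.28). Ppp1cb and Ppp1cc thus kept 69.5% and 69.6% of their WT levels, and both carried q = 0.000903 in the authors' deposited table. Ppp1ca, the alpha isoform, had 125 FPKM in WT and 104 FPKM in MLL4SET-MKO (log2 ratio -0.26, interval -0.51 to -0.01, q = 0.20 in the authors' deposited table). Its locus is shared with Rad9a, and its interval overlaps those of Ppp1cb and Ppp1cc, so the isoforms are not shown to differ from each other. Summed, the catalytic genes had 387 FPKM in WT and 287 FPKM in MLL4SET-MKO, or 74.1% of WT. Ppp1cb was the largest part in both groups, with 45.2% and 42.4% of the sum, followed by Ppp1ca with 32.2% and 36.4% and Ppp1cc with 22.6% and 21.2%.

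**Figure D3:**
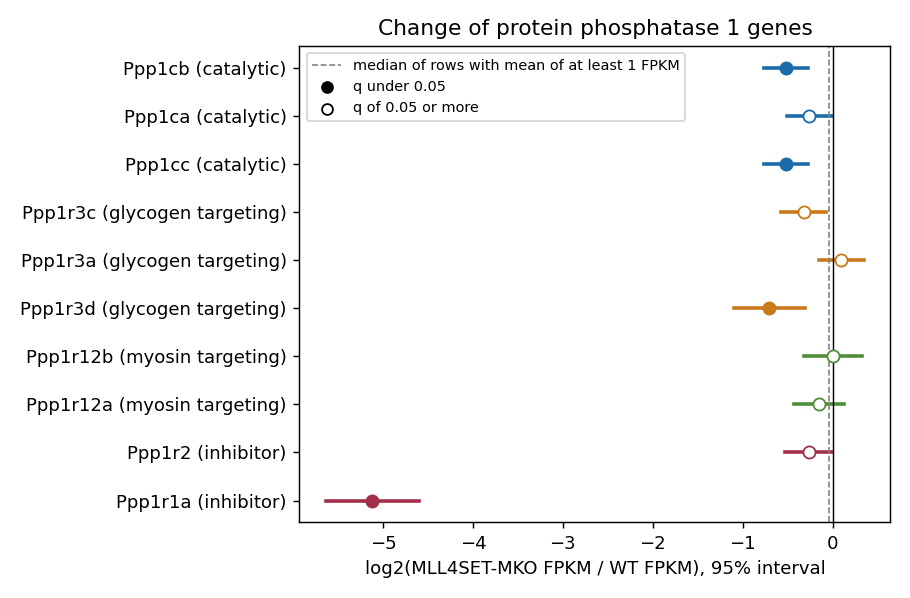
Log2 ratio of MLL4SET-MKO FPKM over WT FPKM for each PP1 gene with its 95% interval worked back from the authors' statistic, coloured by role and filled where q was under 0.05. The dashed line is the median of rows with a mean of at least 1 FPKM, at -0.04; the filled points are Ppp1r1a, Ppp1r3d, Ppp1cb and Ppp1cc.

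The glycogen-targeting genes did not move as a group. Ppp1r3c, which encodes the subunit known as PTG, was the highest PP1 gene in both groups, with 415 FPKM in WT and 331 FPKM in MLL4SET-MKO (log2 ratio -0.32, interval -0.58 to -0.07, q = 0.090 in the authors' deposited table), and was not called. Ppp1r3a, which encodes the large subunit of striated muscle that ties PP1 to glycogen and to the sarcoplasmic reticulum, stood at 75.3 and 80.5 FPKM (log2 ratio 0.10, interval -0.15 to 0.34). Ppp1r3d, a more widely expressed targeting subunit, fell from 2.28 to 1.40 FPKM (log2 ratio -0.70, interval -1.10 to -0.31, q = 0.00955 in the authors' deposited table). It was the least abundant of the 10 genes in WT and made up 0.464% of the summed glycogen-targeting FPKM there, against 84.2% for Ppp1r3c and 15.3% for Ppp1r3a. The sum of the 3 genes had 492 FPKM in WT and 413 FPKM in MLL4SET-MKO, 84.0% of WT.

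The myosin-targeting genes showed no call. They encode MYPT subunits, which direct PP1 to the regulatory light chain of myosin. Ppp1r12b, the form known from heart and skeletal muscle, had 49.6 FPKM in WT and 49.7 FPKM in MLL4SET-MKO, and its interval on the log2 scale ran from -0.32 to 0.32. Ppp1r12a, the widely expressed form, stood at 10.4 and 9.31 FPKM (log2 ratio -0.15, interval -0.43 to 0.12). These intervals bound the change of each gene under the authors' model and do not show that the levels were equal.

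In order of FPKM, WT ran from Ppp1r3c through Ppp1cb, Ppp1ca, Ppp1cc, Ppp1r3a, Ppp1r2, Ppp1r12b, Ppp1r1a and Ppp1r12a to Ppp1r3d. In MLL4SET-MKO the first 3 places were unchanged, Ppp1r3a stood above Ppp1cc and Ppp1r12b above Ppp1r2, and Ppp1r1a dropped from place 8 to place 10. With 1 value per group, whether neighbours in this order differ beyond the spread between mice could not be judged.

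By the likeness of their log2 ratios over the 2 group values, the 5 named genes nearest to Ppp1r1a were Efcab6, Inpp5j, Crip3, Fscn2 and Agt. Efcab6, an EF-hand protein gene also on chromosome 15, fell from 4.09 to 0.164 FPKM and was nearest, 0.48 away on the log2 scale. Inpp5j, an inositol polyphosphate 5-phosphatase gene, fell from 2.34 to 0.137 FPKM. Fscn2, of the actin-bundling fascins, fell from 1.23 to 0.0834 FPKM, and Agt (angiotensinogen) from 6.63 to 0.456 FPKM. Crip3, a LIM protein gene, was listed at 2.77 and 0.0391 FPKM but was not called (q = 0.56 in the authors' deposited table). All 5 stood well under the WT level of Ppp1r1a.

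Ppp1r1a lies 4.66 Mb from Kmt2d on the same chromosome, so a difference that belongs to the targeted stretch of chromosome and a response to the deletion cannot be told apart from these data. No tested neighbour within 500 kb came near the ratio of Ppp1r1a, and all tested ones lay on the side of lower coordinates. Farther out on that side, towards Kmt2d, 2 unnamed rows 872 and 870 kb away had log2 ratios of -3.08 and -2.86. Whether any of these values belong to the targeted stretch was not tested. The rows on the other side, Glycam1 and that of Mucl1 and Spt1, were not tested. Of the 22 other rows within 500 kb, 10 were tested and 2 called, where 11.8% of all tested rows were called. The 10 tested rows had a median log2 ratio of -0.02 and a range from -0.68 to 0.85. Nckap1l, a gene of blood cells 31.0 kb away, rose from 0.716 to 1.29 FPKM, and an unnamed row (chromosome 15, 103095100 to 103101722) fell from 0.811 to 0.506 FPKM. Pde1b, whose locus ends 222 bases from that of Ppp1r1a and which encodes a phosphodiesterase of cyclic nucleotides, was not tested, at 0.396 and 0.373 FPKM. Under the strict reading none of the 10 neighbours passed.

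**Figure D4:**
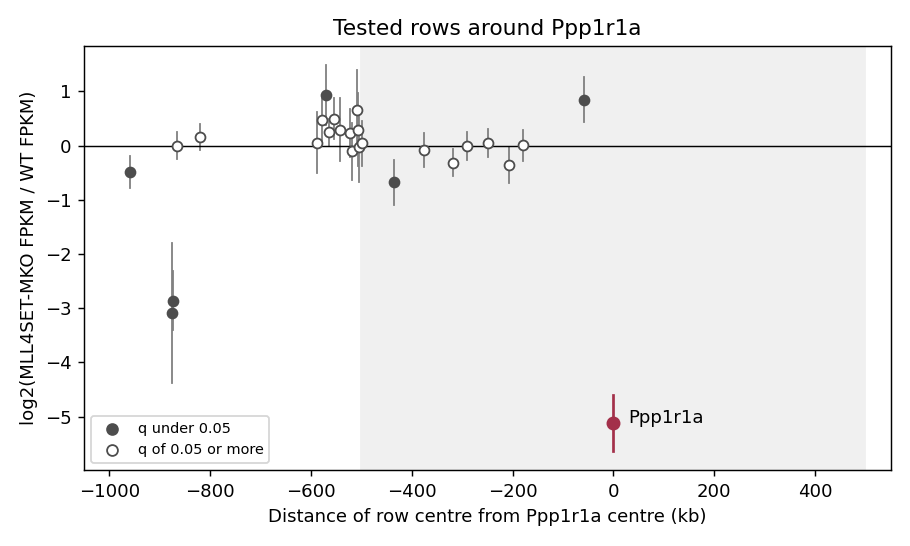
Log2 ratio of MLL4SET-MKO FPKM over WT FPKM, with 95% intervals, for tested rows around Ppp1r1a, against the distance of each row's centre from that of Ppp1r1a in kb; filled points have q under 0.05 and the shaded band is 500 kb either side. Within the band the other rows lie between -0.68 and 0.85, all on the side of lower coordinates, and Ppp1r1a lies at -5.12. Outside the band, 2 unnamed rows lie at -3.08 and -2.86.

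Other PP1 regulators changed in both directions. Of 37 listed, 24 were measured (tested, with a mean of at least 1 FPKM), 3 rose, 3 fell and 18 were not called, with a median log2 ratio of 0.04; of all rows so measured, 12.0% were called, 4.03% as higher and 7.93% as lower. Ppp1r14b and Ppp1r14c, which encode related PP1 inhibitors that are potentiated by protein kinase C, went opposite ways. Ppp1r14b rose from 70.0 to 129 FPKM with a log2 ratio of 0.88 (interval 0.63 to 1.13), and shares its locus with Fkbp2. Ppp1r14c fell from 80.5 to 46.5 FPKM (log2 ratio -0.79, interval -1.04 to -0.54). Both were more abundant than Ppp1r1a in WT. A row of Fam195b and Ppp1r27 fell from 193 to 107 FPKM, and a row of Gpt and Ppp1r16a, which encodes a MYPT family subunit, from 22.9 to 12.9 FPKM. In these rows the share of each gene cannot be told apart. All 4 of these rows also passed under the strict reading, where 3.26% of all rows so measured did. Ppp1r1b, the closest relative of Ppp1r1a, known as DARPP-32 from brain, was not tested, with 0.0696 FPKM in WT and 0.223 FPKM in MLL4SET-MKO. Ppp1r1c was also not tested, at 0.0413 FPKM in WT and listed at 0 in MLL4SET-MKO.

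Genes of the adrenergic and PKA pathway, which acts on inhibitor-1, were lower where they were called. Of 25 listed, 20 were measured, 7 fell and none rose, with a median log2 ratio of -0.29. The share that fell was 35.0%, against 7.93% of all rows so measured. Gnas, the stimulatory G protein subunit, fell from 763 to 575 FPKM and shares its locus with Nespas. Pkia, an inhibitor peptide of PKA, fell from 305 to 228 FPKM, and Prkar2a, a regulatory subunit of PKA, from 91.2 to 68.4 FPKM. At q under 0.01, 2 of the 20 were called, and 8.10% of all rows so measured. None of the 20 passed under the strict reading (1 at an unadjusted p under 0.05), and 9 had an unadjusted p under 0.05 in the authors' deposited table.

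Of 18 measured rows of glycogen enzymes and their regulators, 2 fell, none rose and the median log2 ratio was -0.01; 11.1% were called, against 12.0% of all rows so measured. The fallen genes were Ugp2, which makes UDP-glucose, from 318 to 238 FPKM, and Phkg1, the catalytic subunit of muscle phosphorylase kinase, from 265 to 201 FPKM, both at loci shared with other genes. PP1 acts on phosphorylase kinase, and also on phosphorylase and glycogen synthase. Muscle phosphorylase Pygm had 3191 FPKM in WT and 3160 FPKM in MLL4SET-MKO, and muscle glycogen synthase Gys1 had 163 and 143 FPKM. Neither Pygm nor Gys1 was called, while Phkg1 of phosphorylase kinase was.

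Of 14 measured rows of myosin light chains and the enzymes that phosphorylate them, 4 fell, none rose and the median log2 ratio was -0.15; 28.6% were called lower, against 7.93% of all rows so measured. Those that fell were the slow light chains Myl2, from 270.1 to 62.0 FPKM, and Myl3, from 361 to 190 FPKM, the fast light chain Mylpf, from 10773 to 6959 FPKM, and the kinase gene Rock2, from 28.7 to 21.2 FPKM, which shares its locus with Pqlc3. The muscle light chain kinase genes Mylk2 and Mylk4 were not called, at 290.1 and 259 FPKM and at 293 and 351 FPKM. Catalytic subunits of other serine and threonine phosphatases gave no call in 13 measured rows by the authors' Cuffdiff q-values. Of all rows so measured, 12.0% were called. Under the strict reading none of the 13 passed, where 3.26% of all rows so measured did. In the authors' deposited table, 3 of the 13 had an unadjusted p under 0.05. The median log2 ratio of the 13 rows was -0.12. By the mean of both groups the highest rows were that of Aldoa and Ppp4c, at 10976 and 9262 FPKM, and Ppm1b, at 119 and 145 FPKM. The former does not give the level of Ppp4c, since its reads cannot be split between both genes, and a row of Ppp4c alone had 0.570 and 0.579 FPKM.

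**Figure D5:**
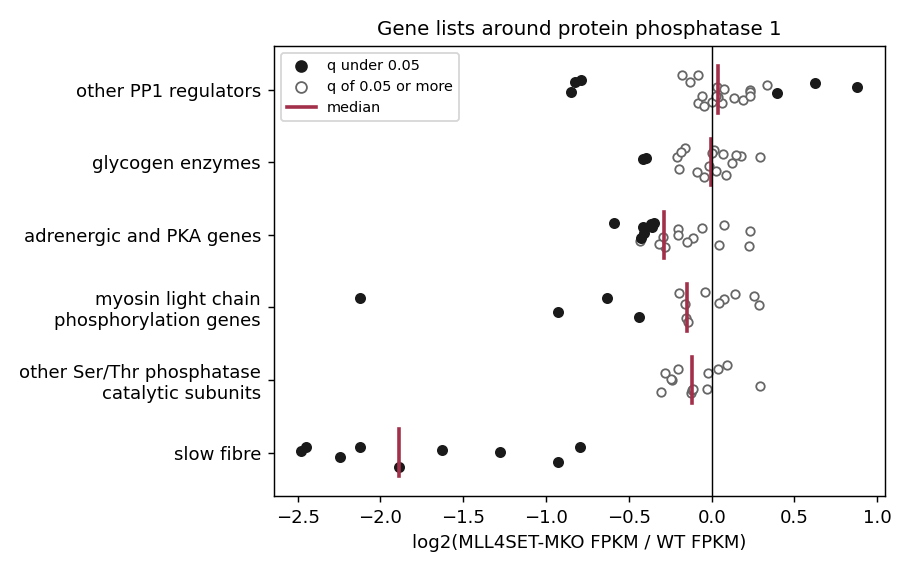
Log2 ratio of MLL4SET-MKO FPKM over WT FPKM for each measured row of the gene lists around PP1 and of the slow fibre markers (1 point per row, spread vertically so that points can be seen), filled where q was under 0.05, with the median as a red bar. Filled points lie on both sides of 0 for other PP1 regulators, and below 0 for PKA genes and for all 9 slow fibre markers. The slow fibre markers run from -0.80 (Casq2) to -2.48 (Tnnt1).

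Markers of other fibre and cell types were mixed. Myl2 and Myl3 are also on the list of slow fibre markers. Of 9 fast fibre markers, Mylpf alone was called, and they summed to 60904 and 57888 FPKM. Of 9 measured macrophage markers, 5 rose and none fell (summed FPKM 99.2 and 158), where 4.03% of all rows so measured were called higher. Of 6 measured smooth muscle markers, which matter for the myosin-targeting genes, Smtn and Lmod1 fell and none rose. Of all rows so measured, 7.93% were called lower. Not called in WT and MLL4SET-MKO were Acta2 (24.2 and 22.7 FPKM), Myh11 (7.23 and 6.97 FPKM) and Tagln (22.8 and 20.3 FPKM). A row of Des and Speg (1049 and 830 FPKM) was not called either. Under the strict reading 9 slow fibre, 1 macrophage, 1 smooth muscle and 0 fast fibre markers were called, the last with 1 at an unadjusted p under 0.05. None was called among measured adipocyte (5), endothelial (6), Schwann cell (6) and fibroblast (5) markers by the authors' q-values or under the strict reading, and 1 of these 22, a fibroblast marker, had an unadjusted p under 0.05. The part of these shifts in the values of the PP1 genes was not tested.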

How the data were processed

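Per the labels' protocols, RNA of flash-frozen muscle was extracted with Trizol and sequenced after an NEBNext Ultra preparation. Tools named in the submitters' processing notes are TopHat2 2.0.14, Cufflinks 2.2.1, FastQC 0.11.3 and bcl2fastq, with build mm10 (GRCm38). Annotation, library scaling and use of strand: not given in the sources used here. Per the file headers, the authors deposited a Cuffdiff table with an FPKM per group, a test statistic (a score), a p-value and a q-value; no column of a single library was used. One line of the table had been emptied.

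A gene was called at q under 0.05 among tested rows. Log2 ratios were computed from the deposited FPKM values without a pseudocount. Standard errors were the log2 ratio divided by 1.73 times the statistic, the median of 11625 rows, with Python 3.11.15 and scipy 1.17.1. The calculation was run on simulated data built with the same factor. That run checks the arithmetic and cannot decide which reading of the statistic is right. Starts are counted from 1. The replicates are separate samples per the labels, which do not say how mice were paired. Members and gene lists were chosen with earlier results of these data known. Named from each list were up to 4 called rows of largest change or, with fewer than 2 called, the 2 of highest FPKM. Other genes named (Pygm, Gys1, Mylk2, Mylk4, Ppp1r1b, Ppp1r1c, Pde1b, Smtn, Lmod1, Acta2, Myh11, Tagln, Des and Speg) were chosen after their values were seen. One gene that the rule names is not reported here. Alternatives were other pseudocounts, centring, thresholds, filters and readings of the statistic.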

Additional observations from a re-analysis of the deposited data

How the results depend on the processing

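No paired analysis was possible because the table gives 1 value per group and no single libraries; leaving out each replicate was not run for the same reason. No result changed direction in the alternatives run, but for a single gene only centring could have changed it. Equal pseudocounts, thresholds, filters and readings of the statistic leave the sign of a ratio as it is. Under the strict reading (the statistic itself as the deviate), calls went from 4 to 1 of the 10 PP1 genes, from 2 to 0 for glycogen enzymes (0 at an unadjusted p under 0.05), from 7 to 0 for PKA genes and from 4 to 2 for myosin light chain genes. With q under 0.01 the calls were 0 for glycogen enzymes (3 had an unadjusted p under 0.05) and 2 for PKA genes. Without rows at shared loci, chosen after seeing the data, 2 other PP1 regulators and 0 glycogen enzymes were called, since called rows were left out. The log2 value of Ppp1r1a was -4.01 with a pseudocount of 1 FPKM, which by construction shrinks ratios of low genes. The log2 value of Ppp1r3d with that pseudocount was -0.45. Within 1000 kb of Ppp1r1a, 6 of 25 tested rows were called, against 2 of 10 within 500 kb and 11.8% of all tested rows. Of 68 values recomputed, 54 stayed on their side of the threshold, within 1.5 times the count or within 1 standard error. Centring the log2 ratios on their median changed the sign of none of the 10 PP1 genes. Among the 10 PP1 genes, the widest interval after that of Ppp1r1a was that of Ppp1r3d, the least abundant in WT.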

Other observations

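The rows next to the PP1 genes were read after their values were seen, and none of the differences between neighbours was tested. Ppp1cc lies 51.4 kb from Myl2, the slow myosin light chain gene, with 1 row between them that was not tested. Myl2 fell by 2.12 on the log2 scale and Ppp1cc by 0.52, while Tctn1, the nearest measured row on the other side of Ppp1cc, had 1.18 FPKM in WT and 0.971 FPKM in MLL4SET-MKO. Ppp1ca, which was not called, lies 1.13 kb from Tbc1d10c, a gene of lymphocytes, which fell from 1.78 to 0.430 FPKM. Ppp1r3d, which fell, lies 70 bases from Fam217b, which stood at 1.06 and 0.977 FPKM and was not called. An unnamed row 90.7 kb from Ppp1r3a rose from 0.644 to 1.73 FPKM.

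Farther from Ppp1r1a, outside 500 kb, 2 adjoining unnamed rows on chromosome 15 fell: one (102657472 to 102657780) from 11.4 to 1.35 FPKM and the other (102659420 to 102660457) from 8.41 to 1.16 FPKM. They lie next to Atp5g2, which stood at 403 FPKM in both groups.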
